A study of Homo sapiens with 4 samples.

Results

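The miR-15/16 family is a group of microRNAs (miRNAs), short RNAs that guide Argonaute proteins to messenger RNAs and lower their translation and stability. Its 7 names here are hsa-miR-15a, hsa-miR-15b, hsa-miR-16, hsa-miR-195 and hsa-miR-497 with the related hsa-miR-424 and hsa-miR-503 (the prefix for human is left out in most of the text), taken by exact name, without the passenger arms (names with a star), from the 1100 mature miRNA names in the deposited files. All 7 were present in the files of all 4 libraries. Family members are known as brakes on cell division: they repress cyclins D1, D3 and E1, CDK6, WEE1 and CHEK1, and miR-15a and miR-16 also repress the survival factor BCL2. The miR-15a/16-1 locus is lost in many chronic lymphocytic leukaemias, the locus of miR-195 and miR-497 is known from muscle and from tumours that lose it, and the locus of miR-424 and miR-503 is known for cell cycle arrest in muscle differentiation and for its part in the involution of the mouse mammary gland.

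Small RNA had been sequenced from a pair of human breast lines and from the exosomes that these cells release, which are small vesicles that carry RNA. MDA-MB-231 cells come from a triple-negative breast cancer, have mesenchymal features and were grown in DMEM with fetal bovine serum. MCF-10A cells are mammary epithelium that is not transformed, and were grown in DMEM/F12 with horse serum, insulin, EGF, cholera toxin and hydrocortisone. The groups were exosomes and cells of MDA-MB-231 and exosomes and cells of MCF-10A, with 1 library each, and the labels name no genetic change or drug in any of them. A single library per group leaves every difference below without a check by replicates, and p-values were not computed. How exosomes were purified, and whether serum vesicles were removed beforehand, is not given in the sources used here.

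Mature sequences show why these miRNAs are read as 1 family. They are given 5′ to 3′ from RefSeq (GRCh38.p14), with the seed, bases 2 to 8, which pairs with targets, in capitals.
miR-15a: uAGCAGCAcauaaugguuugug
miR-15b: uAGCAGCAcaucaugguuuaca
miR-16: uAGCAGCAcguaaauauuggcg
miR-195: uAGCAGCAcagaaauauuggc
miR-497: cAGCAGCAcacugugguuugu
miR-424: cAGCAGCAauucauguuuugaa
miR-503: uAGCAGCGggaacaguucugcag

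The seed AGCAGCA was shared by 6 of the 7, and miR-503 carried AGCAGCG, which differs in its last base. Outside the seed the members diverged. Counting from 1 at the 5′ end, miR-16 and miR-195 differed at 2 of the 21 positions compared (G10A and U11G), and miR-15a and miR-15b at 4 of 22 (A12C, G20A, U21C and G22A). miR-424 and miR-503, which come from neighbouring hairpins, shared only 12 of 22 bases in the same positions. Because miR-16 and miR-195 are this close, the few miR-195 reads found beside many miR-16 reads are uncertain if reads were assigned with mismatches, and the rule of assignment is not given in the sources used here.

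Each of the 4 loci holds a pair of hairpins. MIR15A (chr13:50049119-50049201, minus strand, GRCh38) and MIR16-1 (chr13:50048973-50049061) lie 57 bases apart within DLEU2, where GENCODE 29 places MIR15A over an exon of at least 1 transcript and MIR16-1 in an intron. MIR15B (chr3:160404588-160404685, plus strand) and MIR16-2 (chr3:160404745-160404825) lie 59 bases apart in an intron of SMC4, which encodes a condensin subunit. MIR195 (chr17:7017615-7017701, minus strand) and MIR497 (chr17:7017911-7018022) are 209 bases apart and overlap an exon of MIR497HG. MIR503 (chrX:134546328-134546398, minus strand) lies in an intron of MIR503HG, and MIR424 (chrX:134546614-134546711) is 215 bases from it. The mature miR-16 is made by both MIR16-1 and MIR16-2, so its reads cannot be split between chromosomes 13 and 3, while the star arms of the hairpins can. The hairpins, with the miR-16 arm in capitals, show the same arm in different backbones.
MIR16-1: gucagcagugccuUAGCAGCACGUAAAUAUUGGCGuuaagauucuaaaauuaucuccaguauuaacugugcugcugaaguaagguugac
MIR16-2: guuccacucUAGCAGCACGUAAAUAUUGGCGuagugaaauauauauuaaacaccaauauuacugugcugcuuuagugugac

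Levels below are as deposited, on the log2 scale, in reads per 10000000 of all miRNA reads with 1 added. Whole reads recovered from the low values gave library depths of 1533543 reads for the exosomes of MDA-MB-231, 7340467 for the cells of MDA-MB-231, 1254416 for the exosomes of MCF-10A and 10930134 for the library labelled as MCF-10A cell. That library stood apart. There were 9 lists for other tissues (muscle, mesenchymal, endothelial, erythroid, leukocyte, liver, neural, kidney and gut, and placental 19q13), with 38 miRNAs. All 38 were above 0 in the library labelled as MCF-10A cell. They held 49.5% of its reads, with miR-143 alone at 27.1% and miR-1 at 11.5%. In MDA-MB-231 exosomes 25 of the 38 were above 0, with 2.47% of the reads, in the cells of MDA-MB-231 21, with 0.131%, and in MCF-10A exosomes 18, with 0.147%. All 7 names on the placental list were at 0 in the other 3 libraries. The list leaves out miR-516a-5p, another placental miRNA. It was highest, at 11.91, in the library labelled as MCF-10A cell. Its other levels were 3.57 for MDA-MB-231 cells, 5.07 for the exosomes of that line and 0 for MCF-10A exosomes. The 8 epithelial markers (the miR-200 family, miR-205, miR-203 and miR-31) were all above 0 in the exosomes of MCF-10A (442000 reads per 10000000 in sum) and in the library labelled as MCF-10A cell (100938). They summed to 2318 in the exosomes of MDA-MB-231, with miR-31 at 0, and to 4593 in the cells of MDA-MB-231, with miR-205 and miR-31 at 0. The part of this difference in content in any result below was not tested, and MCF-10A cells had just this library here. Fewer reads of a miRNA and more reads of all others cannot be told apart in such shares.

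Taken as 1 family, the 7 miRNAs were a minor part of every library and largest in the library labelled as MCF-10A cell. They made up 0.148% of the exosome reads of MDA-MB-231 (2267 reads, Wilson 95% interval 0.142 to 0.154), 0.318% of the cells of MDA-MB-231 (23319 reads, 0.314 to 0.322), 0.0749% of the exosomes of MCF-10A (940 reads, 0.0703 to 0.0799) and 2.52% of the library labelled as MCF-10A cell (275185 reads, 2.51 to 2.53). These and all later intervals cover counting error only, because each group had 1 library. Copies of 1 molecule made by PCR count as separate reads, so the intervals may be too narrow even for that. The family's share was lower in the exosomes than in the cell library of either line, and higher in the exosomes of MDA-MB-231 than in those of MCF-10A.

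miR-16 was the leading member in every library but the one labelled MCF-10A cell, where miR-424 led. In MDA-MB-231 exosomes miR-16 held 37.1% of the family's reads and miR-503 held 31.4%. In MDA-MB-231 cells miR-16 (30.3%), miR-424 (28.4%) and miR-15a (25.1%) were close together, with miR-503 at 6.58%. MCF-10A exosomes were almost wholly miR-16 (48.9%), miR-15a (37.3%) and miR-15b (9.79%), and miR-424 and miR-503 together held 3.94% there. In the library labelled as MCF-10A cell miR-424 alone held 53.9%, miR-16 held 30.1%, and miR-195 with miR-497 held 9.49%, a pair that held 0.662% in MDA-MB-231 exosomes, 0.116% in the cells of MDA-MB-231 and 0 reads in MCF-10A exosomes.

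**Figure D1:**
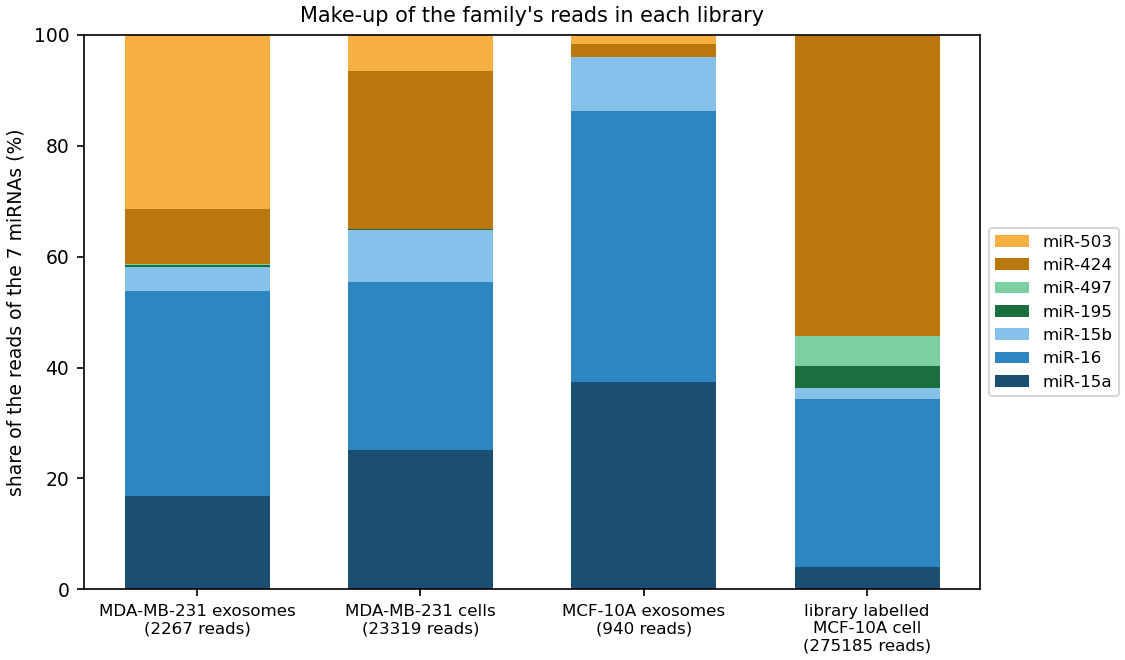
Make-up of the family's reads, with 1 stacked bar per library and the share of each of the 7 miRNAs in percent on the y axis. miR-503 fills 31.4% of the bar of MDA-MB-231 exosomes and miR-424 fills 53.9% of that of the library labelled as MCF-10A cell, while miR-15a, miR-15b and miR-16 fill 96.1% of that of MCF-10A exosomes.

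The miRNAs of the miR-15/16 loci were found in every library. hsa-miR-15a stood at 11.28 in the exosomes of MDA-MB-231, 12.96 in the cells of MDA-MB-231, 11.45 in the exosomes of MCF-10A and 13.34 in the library labelled as MCF-10A cell. Its order was thus both cell libraries above both exosome libraries. The 2 exosome libraries, with 381 and 351 reads, did not differ beyond counting error on the deposited scale. hsa-miR-15b had the same order at lower levels, with 9.28, 11.56, 9.52 and 12.31 in the same order of libraries, and its exosome libraries (95 and 92 reads) did not differ beyond counting error either. hsa-miR-16, which represses BCL2 and cyclins with miR-15a, stood at 12.42, 13.23, 11.84 and 16.21, and ranked 74th, 55th, 71st and 22nd among the names of those libraries. It was highest in the library labelled as MCF-10A cell, by more than miR-15a and miR-15b were.

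**Figure D2:**
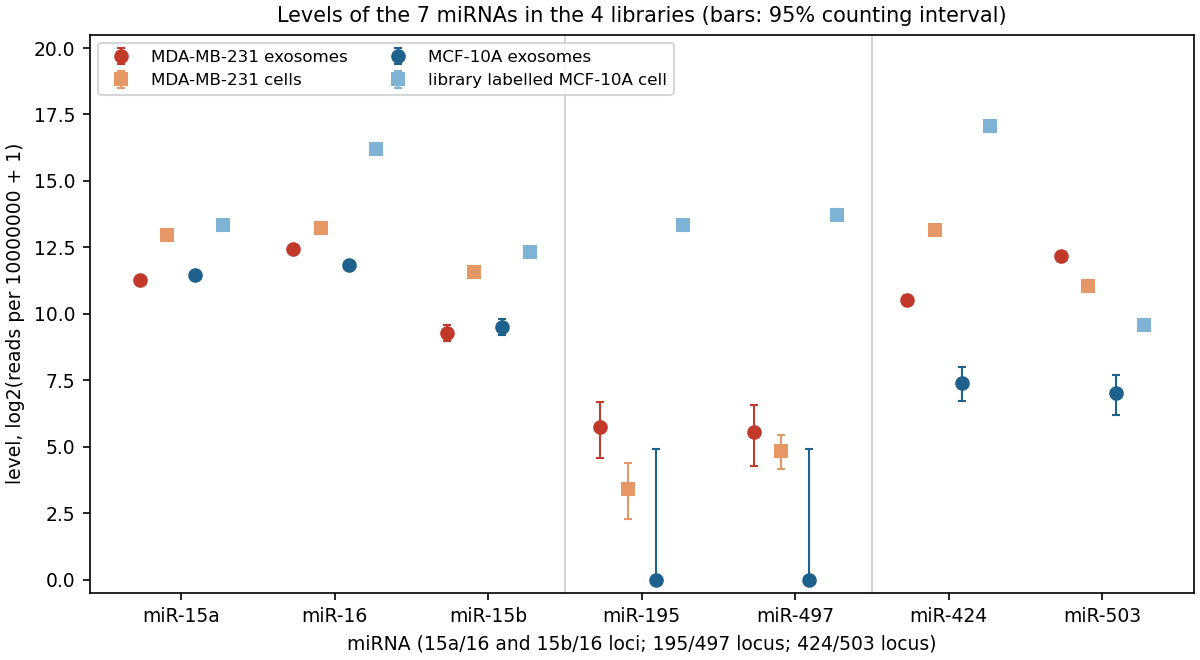
Levels of the 7 miRNAs as log2 of reads per 10000000 plus 1 (y axis), with 1 point per library and bars for the exact 95% counting interval. miR-15a, miR-15b and miR-16 lie between 9.28 and 16.21 in all 4 libraries, whereas miR-195 and miR-497 lie at 5.73 or below in all but the library labelled as MCF-10A cell.

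Ratios within 1 library do not depend on how libraries were scaled. For each read of miR-16 there were 0.454 reads of miR-15a in MDA-MB-231 exosomes (95% interval 0.401 to 0.513), 0.829 in the cells of MDA-MB-231 (0.801 to 0.859), 0.763 in the exosomes of MCF-10A (0.662 to 0.879) and 0.137 in the library labelled as MCF-10A cell (0.134 to 0.139). miR-16 was therefore in excess over miR-15a in every library, and most of all in the last. The ratio was 1.83-fold lower in MDA-MB-231 exosomes than in their cells (1.61 to 2.08) and 1.68-fold lower than in MCF-10A exosomes (1.39 to 2.03). The ratio of miR-15b to miR-16 was 0.113 in MDA-MB-231 exosomes, 0.314 in the cells of MDA-MB-231, 0.200 in the exosomes of MCF-10A and 0.0670 in the library labelled as MCF-10A cell, and was 2.78-fold lower in MDA-MB-231 exosomes than in their cells (2.23 to 3.49). miR-15a and miR-15b, from different chromosomes, stood at a ratio of 4.01, 2.64, 3.82 and 2.04 in the same order. In MDA-MB-231 its value was 1.52-fold higher in exosomes than in cells (1.20 to 1.93), and between the exosomes of the lines it differed by 1.05-fold, with an interval (0.752 to 1.47) that includes no difference.

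The star arms gave a separate view of these loci. The arm miR-16-2*, of chromosome 3, had more reads than miR-16-1*, of chromosome 13, in all 4 libraries: 27 against 6 in the exosomes of MDA-MB-231, 241 against 74 in the cells of MDA-MB-231, 36 against 2 in the exosomes of MCF-10A and 273 against 10 in the library labelled as MCF-10A cell. Levels of star arms also rest on how each strand is kept, so these ratios are not the output of the loci. miR-15b* stood at 7.41 in the exosomes of MDA-MB-231, 10.06 in the cells of MDA-MB-231, 7.46 in the exosomes of MCF-10A and 8.09 in the library labelled as MCF-10A cell, and miR-15a* had reads in the last only (26 reads). Relative to its partner, miR-15b* had 27.4% of the reads of miR-15b in MDA-MB-231 exosomes (17.0 to 42.6), 35.3% in the cells of MDA-MB-231 (32.5 to 38.3) and 23.9% in MCF-10A exosomes (14.3 to 38.4), but 5.35% in the library labelled as MCF-10A cell (4.74 to 6.01). miR-16-2* had 3.21%, 3.42% and 7.83% of the reads of miR-16 in the first 3 libraries and 0.329% in the library labelled as MCF-10A cell, and miR-424* had 8.89%, 8.17% and 14.3% (3 reads) of the reads of miR-424 and then 0.461%. Over 52 pairs of arms with reads of both arms, and at least 50 in sum, in every library, the median star share was 1.74%, 2.90%, 1.49% and 1.25% in the same order, and 33 of the 52 lay below their value of the cells of MDA-MB-231 in the library labelled as MCF-10A cell, against 33 in MDA-MB-231 exosomes and 31 in MCF-10A exosomes.

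**Figure D3:**
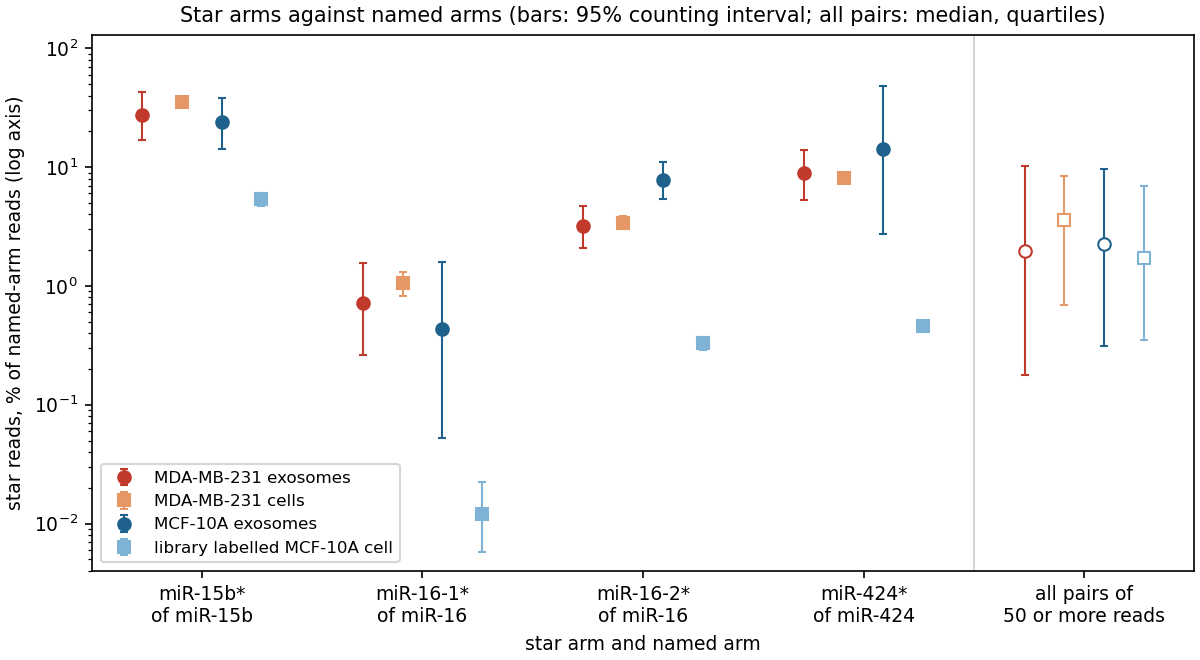
Reads of star arms in percent of the reads of the named arm (y axis, log scale) by pair of arms, with 1 filled point per library and exact 95% counting intervals, and at the right, in open points, the median and quartiles of all pairs with 50 or more reads in sum. The point of the library labelled as MCF-10A cell is the lowest for each of the 4 family pairs, at 5.35% or below, while its median over all pairs, 1.72%, is near those of the other libraries.

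miR-195 and miR-497, which repress the same cell cycle targets, were abundant in 1 library and rare or at 0 in the other 3. hsa-miR-195 stood at 5.73 in the exosomes of MDA-MB-231 (8 reads), 3.40 in the cells of MDA-MB-231 (7 reads), 0 in the exosomes of MCF-10A and 13.33 in the library labelled as MCF-10A cell (about 11262 reads). hsa-miR-497 stood at 5.54 (7 reads), 4.82 (20 reads), 0 and 13.73 (about 14861 reads) in the same order. The 0 of MCF-10A exosomes allows up to 3 reads, or 23.9 reads per 10000000, a limit above the level of miR-195 in the cells of MDA-MB-231 (9.56) and close to that of miR-497 (27.2). Both are the only members with fewer than 50 reads per 10000000 in the cells of MDA-MB-231. In the library labelled as MCF-10A cell their ratio was 0.758 reads of miR-195 to 1 of miR-497 (0.739 to 0.777). miR-195 had 0.952% of the reads of miR-16 in exosomes of MDA-MB-231 and 0.0992% in its cells, against 13.6% in the library labelled as MCF-10A cell. The star arms were rarer: miR-195* had 3 reads in the exosomes of MDA-MB-231, 8 in the cells of MDA-MB-231, 1 in the exosomes of MCF-10A and 49 in the library labelled as MCF-10A cell, and miR-497* had 0, 1, 0 and 66. In MDA-MB-231 cells the star arm miR-195* and miR-195 had 8 and 7 reads, a ratio of 1.14 with a wide interval (0.362 to 3.70). In the library labelled as MCF-10A cell the muscle list held 12.4% of the reads and the mesenchymal list 30.2%. There miR-1 alone held 11.5% and miR-143 alone 27.1%. These were the largest of the 9 other-tissue lists there, with the endothelial list next at 2.09%. In the other 3 libraries the muscle list held at most 0.0181% of the reads and the mesenchymal list at most 0.614%. Any link of these lists to miR-195 and miR-497 was not tested.

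The pair miR-424 and miR-503 differed most between its own members. hsa-miR-424 stood at 10.52 in the exosomes of MDA-MB-231, 13.14 in the cells of MDA-MB-231, 7.40 in the exosomes of MCF-10A (21 reads) and 17.05 in the library labelled as MCF-10A cell, where it was the 13th most abundant name. hsa-miR-503 stood at 12.18, 11.03, 7.01 (16 reads) and 9.58 in the same order, and ranked 77th, 100th, 226th and 248th. The highest library of miR-424 was thus that labelled MCF-10A cell, and the highest of miR-503 was MDA-MB-231 exosomes. For each read of miR-503 there were 0.316 reads of miR-424 in MDA-MB-231 exosomes (0.271 to 0.368), 4.32 in the cells of MDA-MB-231 (4.09 to 4.57), 1.31 in the exosomes of MCF-10A (0.653 to 2.69) and 178 in the library labelled as MCF-10A cell (166 to 190). The ratio was 13.6-fold lower in MDA-MB-231 exosomes than in the cells of MDA-MB-231 (11.6 to 16.1) and 4.15-fold lower than in MCF-10A exosomes (2.02 to 8.64). The star arm miR-424* followed miR-424 rather than miR-503 in MDA-MB-231: it stood at 7.04 in exosomes and 9.53 in cells, and its share of miR-424 reads differed 1.09-fold between them (0.646 to 1.74).

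The other miRNAs downstream on the same strand at Xq26 were compared from a list of 5, of which miR-450b-3p had 3 reads in the library labelled as MCF-10A cell and 0 elsewhere. miR-542-3p, the most abundant of them in all 4 libraries, stood at 11.65 in the exosomes of MDA-MB-231, 11.96 in the cells of MDA-MB-231, 9.23 in the exosomes of MCF-10A and 10.77 in the library labelled as MCF-10A cell. miR-450b-5p stood at 10.56, 9.86, 8.49 and 9.49, miR-450a at 7.57, 7.95, 6.81 and 10.41, and miR-542-5p at 7.36, 7.60, 6.02 and 7.67. All 4 were lowest in MCF-10A exosomes, as were miR-424 and miR-503, but under upper-quartile scaling miR-542-3p (by 0.10) and miR-450b-5p (by 0.64 on the log2 scale) were higher there than in the library labelled as MCF-10A cell. Between MDA-MB-231 exosomes and cells these 4 differed by 1.62-fold at most, while miR-424 was 6.16-fold lower and miR-503 2.22-fold higher in the exosomes.

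**Figure D4:**
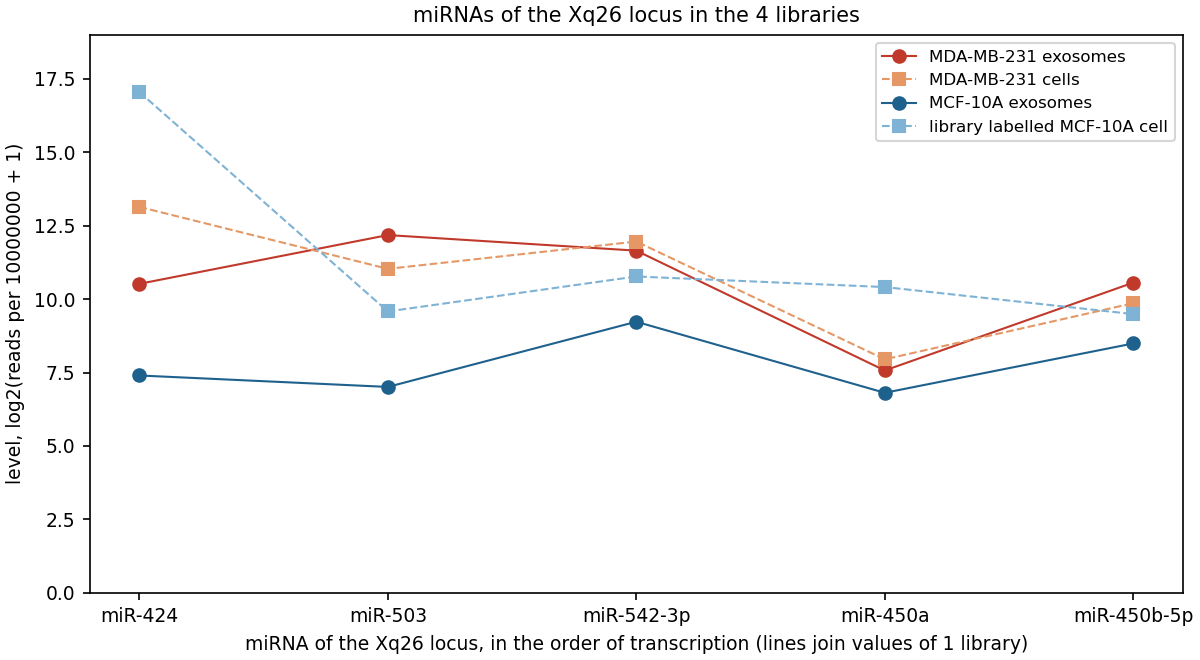
Levels of 5 miRNAs of the Xq26 locus as log2 of reads per 10000000 plus 1 (y axis), in the order of transcription, with 1 line per library. The lines of MDA-MB-231 exosomes and cells cross between miR-424 (10.52 and 13.14) and miR-503 (12.18 and 11.03) and run close to each other from miR-542-3p on.

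The first comparison asked how the exosomes of the cancer line differ from those of the non-transformed line. A name counted as higher or lower at a 4-fold difference (2 on the log2 scale) if 1 of the 2 libraries had 10 or more reads per 10000000 of it. Exosomes of MDA-MB-231 were richer than those of MCF-10A in miR-503 and miR-424. On the deposited scale miR-15a and miR-15b showed no difference beyond counting error. miR-503 was 36.3-fold higher (711 against 16 reads, 95% interval 22.2 to 63.9) and miR-424 8.76-fold higher (225 against 21 reads, 5.60 to 14.4). miR-16 was 1.49-fold higher (1.33 to 1.68), which turned to slightly lower (−0.15 on the log2 scale) under upper-quartile scaling. miR-15a was 1.13-fold lower (0.971 to 1.31) and miR-15b 1.18-fold lower (0.879 to 1.59), and both intervals include no difference. Under upper-quartile scaling both were lower by more than these intervals allow (−0.90 and −0.97 on the log2 scale). Under median-of-ratios scaling miR-15a (−0.41) also lay outside its interval, while miR-15b (−0.48) stayed within. miR-195 and miR-497 had 8 and 7 reads against 0, which is 2.18-fold and 1.91-fold higher with MCF-10A exosomes set at 3 reads. These values leave out the counting error of the 8 and 7 reads.

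By the deposited log2 values 4 of 7 members were higher (miR-195, miR-497, miR-424 and miR-503), 0 were lower and 3 lay within 4-fold, beside 29.3% of the 505 names tested that were higher and 19% that were lower. By recovered reads, with at least 10 in 1 library and an interval that excludes no difference, 2 of 5 were higher (miR-424 and miR-503) and 0 lower, beside 24% of 342 names that were higher and 15.8% that were lower. The members' median log2 difference was 3.12, beside 0.59 over all names tested, and by recovered reads 0.58, beside 0.62. Of their star arms and neighbours, miR-424* was 5.45-fold higher (20 against 3 reads, 1.62 to 28.7), miR-542-3p 5.37-fold (4.20 to 6.94) and miR-450b-5p 4.20-fold (3.04 to 5.92), miR-542-5p 2.56-fold (1.12 to 6.56) and miR-450a 1.69-fold, with an interval (0.867 to 3.47) that includes no difference. Of the 12 listed star arms and Xq26 neighbours, 9 passed the minimum, and of these 3 were higher and 0 lower. The mesenchymal list took up 0.614% of the reads in MDA-MB-231 exosomes (miR-143 alone 0.570%) against 0.00184% in MCF-10A exosomes. The endothelial list held 0.768% against 0.0263%, and the erythroid list 0.317% against 0.00200%. Of the 9 other-tissue lists only the neural one was lower in MDA-MB-231 exosomes (0.0172% against 0.0352%), and the placental one was at 0 in both. The part of such RNA in the differences of this comparison was not tested.

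**Figure D5:**
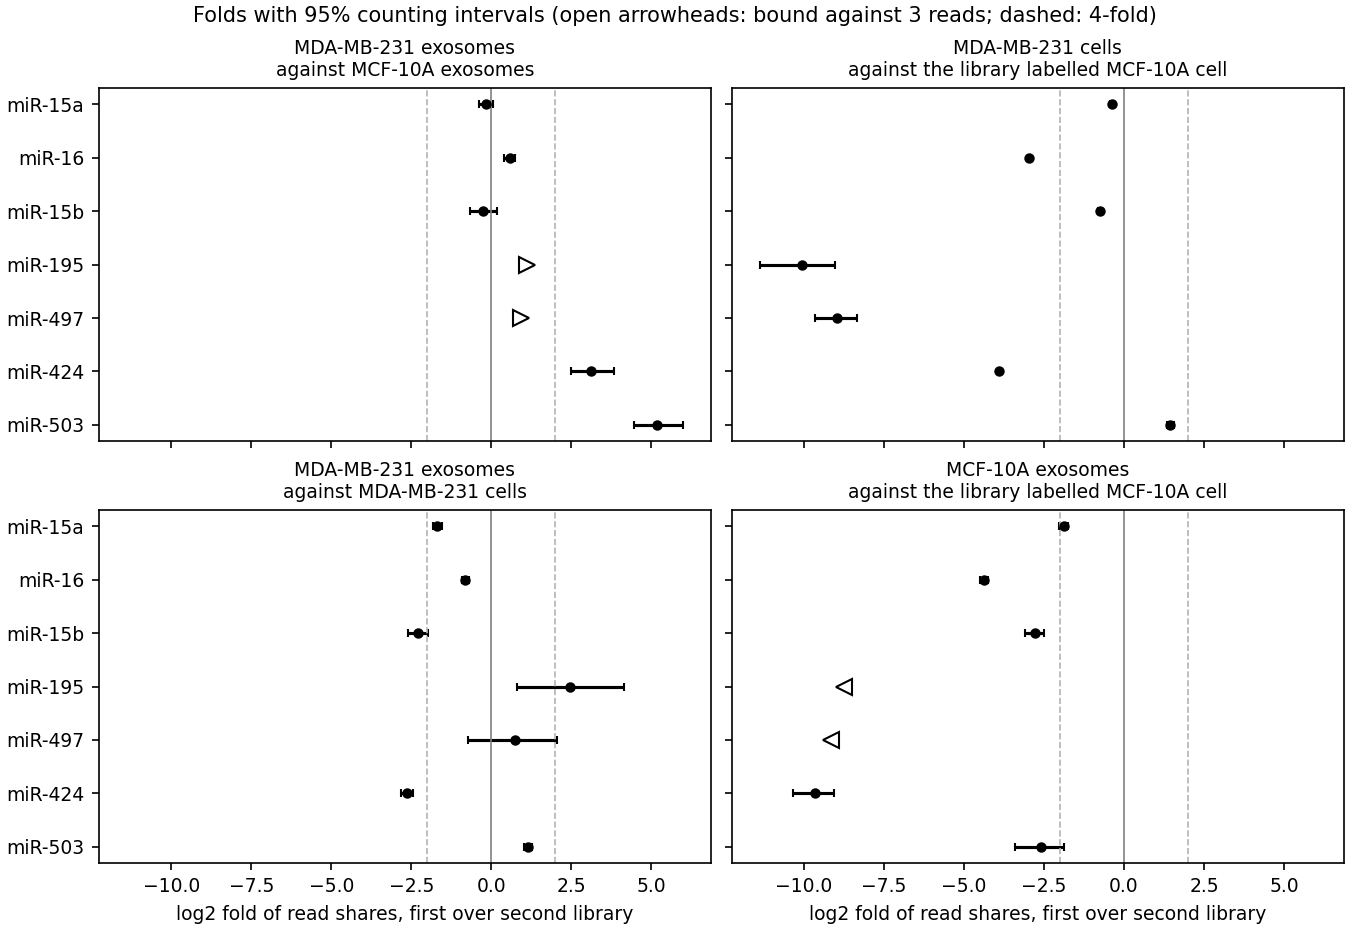
Log2 folds of read shares with exact 95% counting intervals (x axis) for the 7 miRNAs in the 4 comparisons, first library over second, with open arrowheads for bounds against a library at 0 reads set at 3 and dashed lines at 4-fold. miR-503 lies to the right of 0 in 3 panels and to the left in the comparison of MCF-10A exosomes with the library labelled as MCF-10A cell.

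The exosomes of MDA-MB-231 were then set against the cells that released them. It is the one comparison of exosomes and cells free of the library labelled as MCF-10A cell. Its libraries still differed in content, with 2.47% of the exosome reads and 0.131% of the cell reads in the other-tissue lists. The part of such RNA in these differences was not tested. Exosomes held less miR-424, miR-15b, miR-15a and miR-16 than cells and more miR-503. miR-424 was 6.16-fold lower (5.39 to 7.06), miR-15b 4.88-fold lower (3.97 to 6.05), miR-15a 3.21-fold lower (2.89 to 3.57) and miR-16 1.76-fold lower (1.63 to 1.89). miR-503 was 2.22-fold higher (711 against 1535 reads at the lower depth of the exosome library, 2.03 to 2.42). miR-195 was 5.47-fold higher, from 8 against 7 reads, with an interval of 1.73 to 17.7, and miR-497 1.68-fold higher (7 against 20 reads, 0.599 to 4.12).

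By the deposited values 2 of 7 were lower (miR-15b and miR-424), 1 was higher (miR-195) and 4 lay within 4-fold, beside 13.4% of 499 names that were lower and 22.2% that were higher. By recovered reads 2 of 6 were lower and 0 higher, beside 9.84% of 427 names that were lower and 16.4% that were higher. The call of miR-195 was lost with a pseudocount of 10 and with at least 10 reads required, and under upper-quartile scaling the count was 3 lower, with miR-15a at −2.12 on the log2 scale, and 0 higher. That scaling split all names into 99 higher and 97 lower, where the deposited values gave 111 and 67. The members' median was −0.81, beside −0.09 over all names. The star arms of the same hairpins stood on the same side as their partners: miR-424* was 5.66-fold lower in exosomes (3.63 to 9.34), miR-15b* 6.29-fold (4.26 to 9.69), miR-16-1* 2.58-fold (1.13 to 7.25) and miR-16-2* 1.86-fold (1.25 to 2.89). Of the 12 listed star arms and neighbours 9 passed the minimum, with 2 lower and 0 higher.

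The comparison between the lines' cells depends on the library labelled as MCF-10A cell. MDA-MB-231 cells held less miR-195, miR-497, miR-424 and miR-16 than that library and more miR-503. miR-195 was 1080.5-fold lower (7 against about 11262 reads, 524 to 2688), miR-497 499-fold lower (323 to 817), miR-424 15.0-fold lower (14.7 to 15.4) and miR-16 7.89-fold lower (7.70 to 8.09). miR-15a was 1.30-fold lower (1.26 to 1.34) and miR-15b 1.68-fold lower (1.60 to 1.77), and both turned to higher under upper-quartile scaling (1.04 and 0.67 on the log2 scale). miR-503 was 2.73-fold higher (2.51 to 2.98), a log2 difference of 1.45 that was 0.47 over the reads outside the other-tissue lists and 2.87 under upper-quartile scaling.

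In this comparison 4 of 7 members were lower and 0 higher, beside 54.3% of 665 names that were lower and 17.4% that were higher, so the share of lower members is near the background. By recovered reads the members gave the same counts, beside 52.3% of 661 names that were lower and 16.9% that were higher. Under upper-quartile scaling 3 members were lower, without miR-16 (−1.56 on the log2 scale), and 1, miR-503, higher, and all names split into 166 higher and 307 lower, where the deposited values gave 116 and 361. The members' median was −2.98, beside −2.83 over all names. Of the star arms, 4 stood on the other side than their partners. miR-16-1* was 11.0-fold higher in the cells of MDA-MB-231 (74 against 10 reads, 5.67 to 23.9), miR-15b* 3.93-fold higher (3.43 to 4.5), miR-16-2* 1.31-fold higher (1.10 to 1.57) and miR-424* 1.18-fold higher (1.05 to 1.32), while miR-16, miR-15b and miR-424 were lower. Over the reads outside the other-tissue lists, miR-16-2* (−0.59 on the log2 scale) and miR-424* (−0.74) turned to lower. Of the 12 listed star arms and neighbours 11 passed the minimum, with 1 higher (miR-16-1*) and 3 lower (miR-15a*, miR-497* and miR-450a). At Xq26 miR-542-3p was 2.28-fold higher (2.15 to 2.42), a log2 difference that was 0.21 over the reads outside the other-tissue lists, miR-450a 5.52-fold lower (4.73 to 6.47) and miR-450b-5p 1.29-fold higher (1.17 to 1.44), which turned to lower (−0.61) over the reads outside the other-tissue lists.

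MCF-10A exosomes against the same library gave lower values for all 7 members. miR-424 was 811-fold lower (21 against about 148420 reads, 531 to 1310.4), miR-16 20.7-fold lower (18.9 to 22.7), miR-15b 6.93-fold lower (5.64 to 8.61), miR-503 6.0-fold lower (3.67 to 10.5) and miR-15a 3.71-fold lower (3.33 to 4.14). miR-497 and miR-195, at 0 reads in the exosomes, were 569-fold and 431-fold lower with the exosomes set at 3 reads. By the 4-fold rule 6 of 7 were lower and miR-15a lay within, beside 57.2% of 661 names that were lower and 15.4% that were higher. By recovered reads the counts were the same, beside 46.7% of 629 names that were lower and 11% that were higher. Of the 12 star arms and neighbours 11 passed the minimum, with 5 lower, among them miR-424* (26.2-fold, 8.92 to 127) and miR-450a (12.2-fold), and 0 higher. The others were miR-497* (0 against 66 reads), miR-15a* (0 against 26) and miR-195* (1 against 49). The intervals of miR-15a* and miR-195* include no difference. The members' median was −4.37, beside −3.27 over all names. Under median-of-ratios scaling 5 members were lower, without miR-503 (−1.89 on the log2 scale). Under upper-quartile scaling 4 were lower, without miR-15b (−1.15) and miR-503 (−0.94), and all names split into 169 higher and 318 lower, where the deposited values gave 102 and 378. The other-tissue lists held 0.147% of the reads of the exosomes of MCF-10A and 49.5% of the library labelled as MCF-10A cell, and with shares taken over the reads outside these lists all 7 members were lower.

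The miRNAs whose levels ran most like each member's were found among 565 other names that reached 50 reads per 10000000 somewhere, by the root mean square difference of the 4 log2 levels, each centred on its own mean. It is a description over 4 libraries, among which the one labelled MCF-10A cell weighs most. Levels of 0 entered as 0, though a 0 in MCF-10A exosomes allows up to 23.9 reads per 10000000. Distances that involve a name at 0 carry this uncertainty. Nearest to miR-195 was miR-497 (0.622 log2 units) and nearest to miR-497 was miR-195, the only members whose closest name was another member. Next to them came miR-516a-5p, a placental miRNA (0.626 from miR-195 and 0.701 from miR-497), with miR-204 for miR-195 (0.935) and miR-363 for miR-497 (0.915). Nearest to miR-15a were miR-125b (0.202), miR-1259 (0.243) and miR-30c (0.282), with miR-15b 6th (0.398). Nearest to miR-15b were miR-7-1* (0.293), miR-20a* (0.348) and miR-30c-1* (0.351), with miR-15a 5th. miR-16 lay nearest to miR-28-5p (0.165), miR-502-5p (0.306) and miR-29c* (0.335), and miR-15b and miR-15a were 33rd and 65th. miR-424 lay nearest to miR-193a-3p (0.536), miR-99a* (0.565) and miR-129-3p (0.578), all 3 at 0 in MCF-10A exosomes, and miR-503 to miR-10a (0.596), miR-181d (0.634) and miR-138-1* (0.827). The pair from 1 locus, miR-424 and miR-503, was far apart by this measure (3.39), where miR-503 was the 316th nearest name to miR-424.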

How the data were processed

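Per the labels' protocols, TRIzol reagents were used to extract RNA, small RNAs were selected by size, and libraries of RNAs with a 5′ monophosphate were run on an Illumina Genome Analyzer. The submitters' processing notes list Novoalign, edgeR and hg18 without saying what each did. The deposited values of the authors are on a log2 scale with 2 decimals. The scale was read from the values themselves: raised from log2 and less the pseudocount of 1, they add up to nearly 10000000 per library (9992361 to 10004141), and low ones are multiples of the worth of 1 read (6.52, 1.36, 7.97 and 0.914 reads per 10000000 in the order MDA-MB-231 exosomes, MDA-MB-231 cells, MCF-10A exosomes, library labelled MCF-10A cell). Of the names above 0, 65.7%, 55.7%, 65.6% and 40.1% were low enough for single reads to be told apart, with rounding that spans less than 0.5 reads. The worth of 1 read was set where most of these came out whole, and 100% did. Read numbers above that range are known to the rounding of 0.005 log2 (0.347%). A count of 0 allows 3 reads, or 19.6, 4.08, 23.9 and 2.74 reads per 10000000.

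Folds and shares of reads use recovered reads, and log2 differences use the deposited log2 values, which exceed what the reads allow where a library is at 0. Ratios have exact conditional binomial 95% intervals, fold differences between ratios exact conditional odds-ratio intervals, shares of reads Wilson intervals. Recovery and folds were tested on simulated data. The members, lists and rules were chosen with earlier results of these data known. All 7 members are named, with fixed lists of star arms and Xq26 neighbours (12 names in the files) and of names sharing part of the seed (3 names). The names most like a member are the 3 nearest. Alternatives were another pseudocount, no minimum, calls on recovered reads, upper-quartile scaling, median-of-ratios scaling and shares outside the other-tissue lists. Sequences came from RefSeq (GRCh38.p14) and host genes from GENCODE 29. All 7 members matched by name with their 5p arms. The analysis used Python 3.11.15, numpy 2.4.6, scipy 1.17.1, pandas 2.3.3 and matplotlib 3.10.9.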

Additional observations from a re-analysis of the deposited data

Results flagged for a closer look

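With 1 library per group the differences below were not tested, and each compares a pair of log2 differences that point opposite ways beyond counting error. Between exosomes and cells, miR-503 was higher in the exosomes of MDA-MB-231 than in its cells (1.15) and lower in MCF-10A exosomes than in the library labelled as MCF-10A cell (−2.57), a gap of 3.72. For miR-195 the same contrasts were 2.33 and −13.33, a gap of 15.66, from 8 and 7 reads in MDA-MB-231 and 0 in MCF-10A exosomes. Between the lines, miR-424 was higher in the exosomes of MDA-MB-231 than in the exosomes of MCF-10A (3.12) and lower in the cells of MDA-MB-231 than in the library labelled as MCF-10A cell (−3.91), a gap of 7.03. miR-16 gave 0.58 and −2.98 (gap 3.56), but under upper-quartile scaling −0.15 and −1.56, which point the same way. miR-195 gave 5.73 and −9.93 (15.66), and miR-497 gave 5.54 and −8.91 (14.45). The 5.73 and 5.54 stand against 0 reads in MCF-10A exosomes, and were 1.13 and 0.93 with that library set at 3 reads. All of the gaps above rest on the library labelled as MCF-10A cell, in which miRNAs of other tissues held 49.5% of the reads. The part of that content was not tested.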

How the results depend on the processing

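Each comparison was recomputed under 6 alternatives, and no called log2 difference of a member changed sign. Of 140 recomputed member values, 137 kept their sign and 129 their side of the 4-fold line. The sign changes were the 3 under upper-quartile scaling given in the report. Counts of members per direction stayed within 1.5 times in 43 of 48 cases. Dropping the minimum could not change a count, as every member passed it in each comparison, and cases that stayed at 0 are among the 43. In the exosome comparison 2 members were higher by recovered reads, in place of 4. Between MDA-MB-231 exosomes and cells 0 were higher, in place of 1, with a pseudocount of 10, by recovered reads and under upper-quartile scaling. In the cell comparison 1 was higher under upper-quartile scaling, in place of 0. Upper-quartile scaling moved the median over all names by −0.73 in the exosome comparison, 1.38 in the cell comparison, −0.44 between MDA-MB-231 exosomes and cells and 1.61 for MCF-10A, and median-of-ratios scaling by −0.24, 0.36, 0.08 and 0.65. The 19 ratios within libraries from deposited values all lay within the counting intervals. The reads were recovered from those same values, so this was fixed in advance up to rounding and is no check. Where a library holds under 10 reads, as for miR-195 and miR-497, depth limits what can be said. No paired analysis was possible because each group held 1 library and the labels give no replicate numbers.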

Other observations

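miR-103 and miR-107 carry the seed GCAGCAU, which holds part of the family's seed shifted by 1 base. miR-103 stood at 16.21 in the exosomes of MDA-MB-231, 17.34 in the cells of MDA-MB-231, 15.45 in the exosomes of MCF-10A and 15.07 in the library labelled as MCF-10A cell, and miR-107 at 8.41, 9.99, 8 and 14.04. These miRNAs, which lie in introns of pantothenate kinase genes, differ by 1 of 23 bases, G22C near the 3′ end. For each 100 reads of miR-103 there were 0.448 of miR-107 in MDA-MB-231 exosomes (95% interval 0.334 to 0.587), 0.612 in the cells of MDA-MB-231 (0.569 to 0.658), 0.570 in the exosomes of MCF-10A (0.389 to 0.805) and 49.0 in the library labelled as MCF-10A cell (48.1 to 49.8). The first 3 ratios have overlapping intervals, and the last is far outside them. Because miR-103 and miR-107 differ by 1 base, these ratios are uncertain if reads were assigned with mismatches. The rule of assignment is not given in the sources used here. miR-646, with the seed AGCAGCU, had 0 reads in all 4 libraries.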
